A study of Mus musculus with 18 samples.

Results

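A list of 38 genes was followed through RAW264.7 macrophages: the transcription factor gene Myc, the kinase gene Nme1 and 36 genes of nucleolar ribosome assembly. Members were taken as the probe sets annotated to the listed symbols, and 37 of the 38 had a probe set naming that gene alone; all 37 passed the filter on low signals and stand among 11547 genes tested in the whole series. The probe set for Mrto4, a large subunit factor, is annotated to several symbols, so Mrto4 was not analysed here. RAW264.7 is an established mouse macrophage line from a tumour induced by Abelson murine leukemia virus. Cells received 0.1% DMSO (the vehicle), a Hypericum perforatum sub-fraction at 10 ug/mL (below, the fraction), or a mixture of constituents of that plant (below, the mixture; labelled the 4-component system). The mixture held the flavonoids quercetin at 0.08 uM and amentoflavone at 0.07 uM, the naphthodianthrone pseudohypericin at 0.03 uM, and chlorogenic acid at 0.2 uM. Each of these was given without or with LPS, the bacterial endotoxin, at 10 ug/mL for 8 h. All 6 groups were dosed in the dark and then stood in ambient light for 30 min, and each was measured on 3 arrays.

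Ribosomes are built in the nucleolus. RNA polymerase I makes the long ribosomal RNA precursor, small nucleolar ribonucleoproteins (snoRNPs) guide its methylation and pseudouridylation, and separate sets of assembly factors fold and cleave it into the small and large subunits. Myc, which binds DNA with its partner Max at the E-box, drives many of these genes in growing cells, and it is an early response gene of macrophages to LPS. Nme1, a nucleoside diphosphate kinase gene, is a long-known Myc target.

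The labelled cell type was borne out by its markers: 11 of 12 macrophage markers passed the filter, with means from 85.2 to 25291. Of the T and B cell markers on the array 0 passed, and the 6 of fibroblasts, epithelium, endothelium and granulocytes that did had means of at most 69.0. Arrays of a group correlated at 0.970 to 0.979. Nothing in the labels ties the 3 arrays of a group to different cultures. The p-values therefore cover only the scatter among arrays, which may be technical. Intensities below are those deposited, scaled so that every array has the same trimmed mean of 500. They are thus relative to the total RNA on an array, and fewer cells and less RNA per cell cannot be told apart. Differences are log2 values ± SE from limma with 3 arrays a group, and a gene was called when its p, adjusted by the Benjamini-Hochberg method over all 11547 genes, was under 0.05. Where a gene has several probe sets, the brightest stands for it, and p-values of its other probe sets come from a fit of all probe sets above the filter.

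The fraction lowered and LPS raised parts of the nucleolar list, LPS raised Myc the most, and no member was called for the mixture. In vehicle cells LPS raised 9 of the 37 members and lowered 1, against 10.1% of all tested genes raised and 21.8% lowered. Without LPS the fraction raised 3 members and lowered 16, against 15.9% and 15.3% of all genes. With LPS it raised 2 and lowered 11, against 11.1% and 12.7%. Of the 10 calls for LPS in vehicle cells, only 1, that of Myc, stood in all alternative fits that tested it (described at the end). For the fraction 10 of 19 calls without LPS and 3 of 13 with it did so. The median difference of the 37 members was 0.11 for LPS in vehicle cells (all genes -0.07), -0.22 for the fraction without LPS (all genes 0.02) and -0.16 for the fraction with LPS (all genes -0.02). The vehicle arrays enter both the first and the second of these comparisons. The vehicle arrays with LPS enter both the first and the third, with opposite sign, so these results are not independent.

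**Figure D1:**
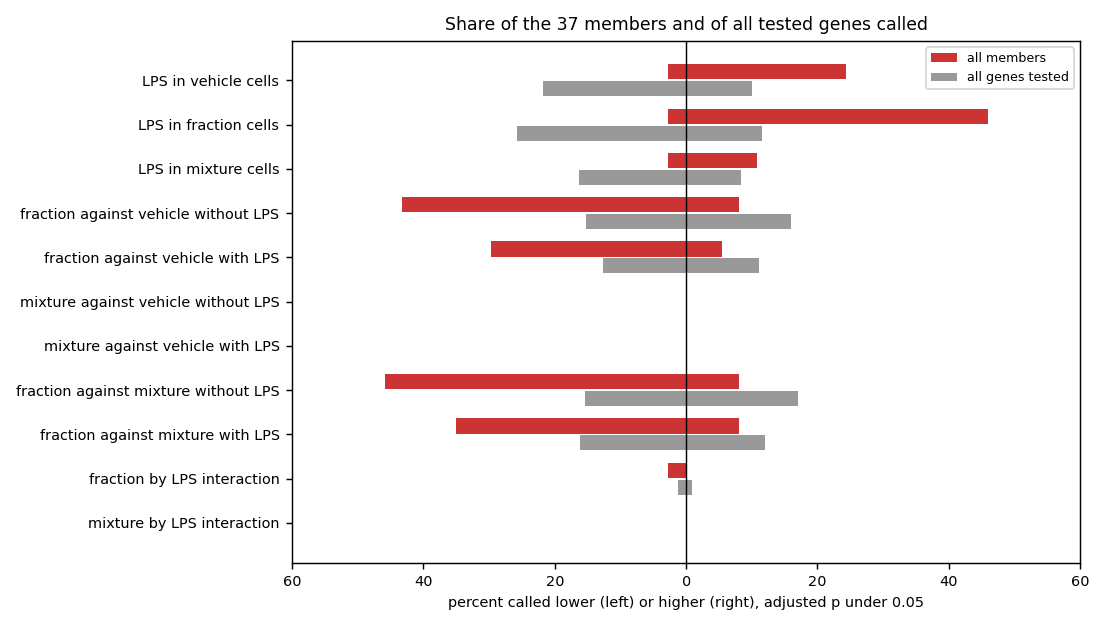
Percent of the 37 members (red) and of all 11547 tested genes (grey) called lower (left of 0) or higher (right of 0) in each of the 11 comparisons. The red bars reach farther left than the grey in the 4 comparisons of the fraction with vehicle or mixture. They reach farther right in the 3 comparisons with and without LPS, though only slightly in mixture cells (10.8% against 8.32%). The mixture against vehicle, without and with LPS, and the difference of their LPS responses have no bar.

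**Figure D2:**
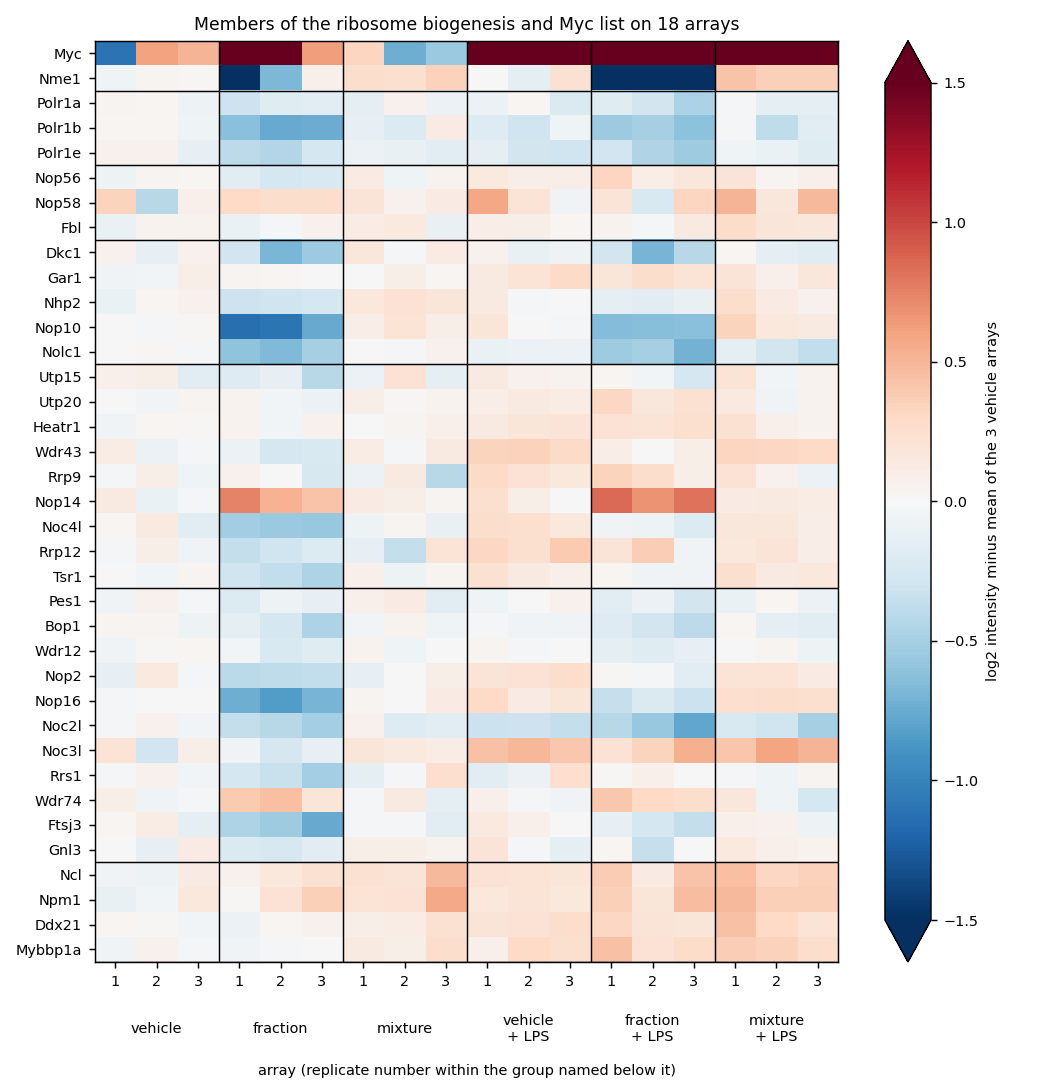
Heat map of the log2 intensity of each of the 37 members (rows, in blocks by role) on each of the 18 arrays (columns, in groups of 3), less the mean of the 3 vehicle arrays; the colour scale ends at -1.5 and 1.5. Rows such as Nop10, Nop16 and Polr1b are blue on the 6 fraction arrays, Nop14 is red on the same 6 arrays, and Myc is red on all 9 arrays with LPS.

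Myc had the largest response of the list. Its intensity was 60.8, 199 and 187 on the 3 vehicle arrays and 1192, 1643 and 1554 on the 3 vehicle arrays with LPS. The groups did not overlap, with means of 149 ± 76.5 and 1463 ± 239 (SD, n = 3), and the difference was 3.46 ± 0.35 (adjusted p = 3.6e-07). LPS raised Myc by 2.98 ± 0.35 in fraction cells (adjusted p = 1.7e-06) and by 2.99 ± 0.35 in mixture cells (adjusted p = 3.1e-06). The fraction alone gave 397, 403 and 202, all above the vehicle arrays, a difference of 1.28 ± 0.35 (adjusted p = 0.0084). Vehicle array 1 was the lowest of all 18 for Myc, and without it this difference was 0.72 and was no longer called (adjusted p = 0.056). With LPS the fraction arrays read 2376, 2577 and 2585, the highest Myc values of the series, and did not overlap the vehicle arrays with LPS, but the difference of 0.79 ± 0.35 was not called (adjusted p = 0.11). Mixture arrays read 164, 78.7 and 89.3 without LPS and 911, 824 and 776 with it. The latter lay below all 3 vehicle arrays with LPS, with a difference of -0.79 ± 0.35 that was not called (adjusted p = 0.59). Between fraction and mixture the Myc difference was 1.60 ± 0.35 without LPS (adjusted p = 0.0015) and 1.59 ± 0.35 with it (adjusted p = 0.002). Myc was measured by a single probe set. The 60.8 of vehicle array 1 lies within the array medians of 52.1 to 66.8, and the mixture values of 78.7 and 89.3 lie near them. The size of the Myc differences set against vehicle or mixture arrays without LPS is therefore uncertain.

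**Figure D3:**
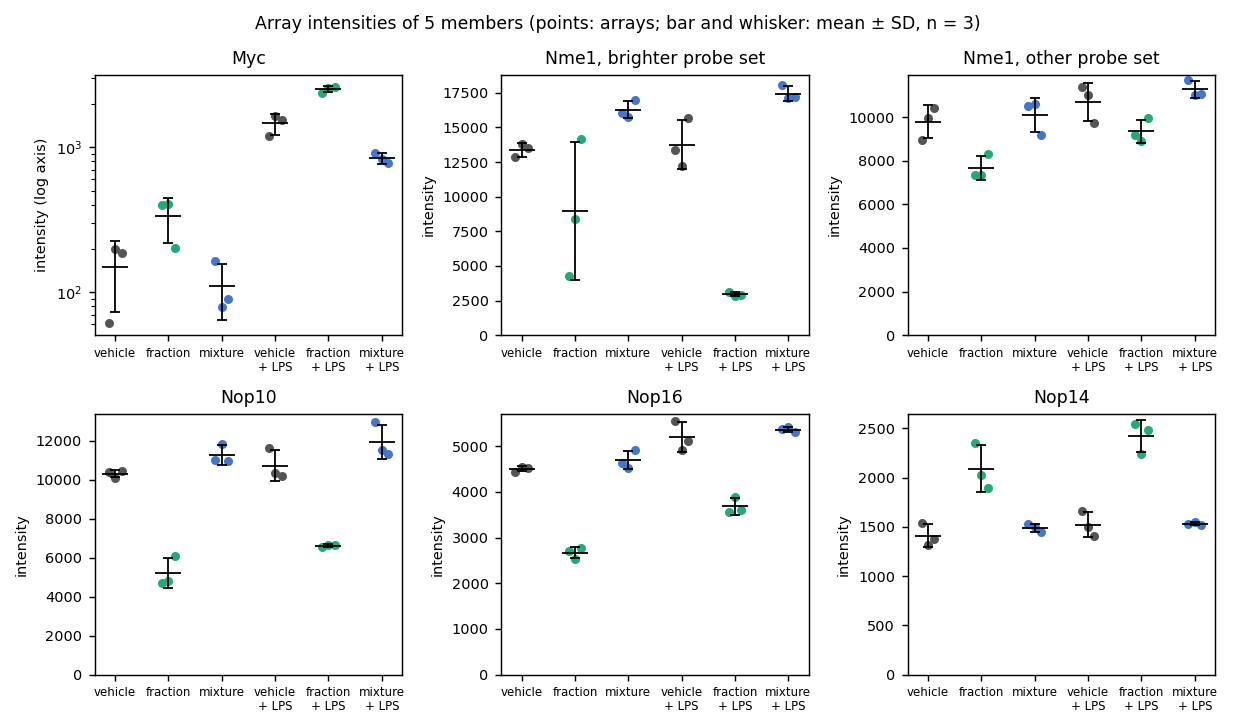
Array intensities of Myc (log axis), Nme1 by each of its 2 probe sets, Nop10, Nop16 and Nop14 (linear axes from 0) in the 6 groups; points are arrays, bars and whiskers the mean ± SD of 3 arrays. Fraction arrays are the lowest for Nop10 and Nop16 and the highest for Nop14 both without and with LPS, and the 2 Nme1 panels differ most in fraction cells with LPS.

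The E-box that Myc and Max bind, CACGTG (a palindrome, so 1 search covers both strands), was looked for in RefSeq promoter windows of GRCm38.p6 running from 250 bases before to 50 after a start site. Of the 38 members 32 had a window, and 7 of those 32 (21.9%) held the motif, against 10.2% of 14452 genes on the array with a window and 7.15% of all 32851 windows. The 7 were Mybbp1a, Nme1, Nop2, Pes1, Tsr1, Utp20 and Wdr43. The windows of Nop2, Tsr1 and Wdr43 are shown as examples, chosen after the results were seen from the 6 genes with the motif that were called in at least 1 comparison (all of the 7 but Pes1), and that of Nop10 because it had the largest fall of the nucleolar members and no motif; the E-box is in capitals. Nop2 lies on the plus strand at chr6:125131633-125131932, Tsr1 on the plus strand at chr11:74897830-74898129, Wdr43 on the plus strand at chr17:71615965-71616264 and Nop10 on the plus strand at chr2:112261676-112261975.
Nop2: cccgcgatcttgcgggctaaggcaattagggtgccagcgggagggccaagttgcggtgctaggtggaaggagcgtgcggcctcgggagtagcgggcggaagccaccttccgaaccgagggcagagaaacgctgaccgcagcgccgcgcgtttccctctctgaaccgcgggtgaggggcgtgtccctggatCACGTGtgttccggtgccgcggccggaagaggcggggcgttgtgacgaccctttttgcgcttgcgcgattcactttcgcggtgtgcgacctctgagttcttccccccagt
Tsr1: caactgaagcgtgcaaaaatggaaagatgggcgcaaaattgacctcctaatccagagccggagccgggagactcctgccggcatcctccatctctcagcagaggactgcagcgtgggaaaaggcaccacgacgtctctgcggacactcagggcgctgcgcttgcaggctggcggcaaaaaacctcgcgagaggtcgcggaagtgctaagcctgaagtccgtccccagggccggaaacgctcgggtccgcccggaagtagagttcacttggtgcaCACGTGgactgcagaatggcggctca
Wdr43: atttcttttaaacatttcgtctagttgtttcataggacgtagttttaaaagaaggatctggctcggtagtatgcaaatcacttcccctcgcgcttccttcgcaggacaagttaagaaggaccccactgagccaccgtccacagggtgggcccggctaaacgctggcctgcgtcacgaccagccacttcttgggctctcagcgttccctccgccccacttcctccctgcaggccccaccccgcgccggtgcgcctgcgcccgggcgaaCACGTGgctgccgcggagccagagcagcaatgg
Nop10: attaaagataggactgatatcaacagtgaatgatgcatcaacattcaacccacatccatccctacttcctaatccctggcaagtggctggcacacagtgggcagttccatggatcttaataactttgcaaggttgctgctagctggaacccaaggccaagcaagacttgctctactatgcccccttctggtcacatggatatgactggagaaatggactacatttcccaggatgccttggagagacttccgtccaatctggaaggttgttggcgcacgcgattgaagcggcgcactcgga
Among members lowered by the fraction without LPS, 3 of the 14 with a window held the motif, and among those raised by LPS in vehicle cells 3 of 8. Among members not called in these comparisons, 4 of 15 with a window held it for the fraction and 4 of 22 for LPS. The median LPS difference in vehicle cells was 0.14 for tested members with the motif and 0.08 for those without. For the fraction without LPS these medians were -0.19 and -0.22. A match is a description of the letters and not of binding.

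Nme1 gave different answers by its 2 probe sets. The brighter one, of a kind (suffix x) whose probes may bind related transcripts, read 12842, 13811 and 13543 on vehicle arrays, 13334, 12214 and 15703 with LPS, and only 3095, 2849 and 2938 in fraction cells with LPS. Fraction arrays without LPS were spread widely, at 4245, 8399 and 14171. With LPS the fraction difference was -2.21 ± 0.24, or 4.62-fold lower (adjusted p = 2.1e-06), and without LPS it was -0.75 ± 0.24 (adjusted p = 0.024). The latter was -0.30 and no longer called without fraction array 1 (adjusted p = 0.14), and also not called without vehicle array 2 (-0.73, adjusted p = 0.064) or 3 (-0.74, adjusted p = 0.057). The other Nme1 probe set read 11380, 10994 and 9710 on vehicle arrays with LPS and 9193, 8894 and 9936 on fraction arrays with LPS. Its difference there was -0.19 and was not called (adjusted p = 0.12), and in fraction cells LPS raised it by 0.29 (adjusted p = 0.013) where the brighter set fell by 1.43 (adjusted p = 0.00011). Both probe sets fell in fraction cells without LPS, the other one by 0.35 (adjusted p = 0.0041). Nme2, the neighbouring and closely related kinase gene, had means of 20156 ± 1170 (SD, n = 3) in vehicle cells with LPS and 20817 ± 1224 in fraction cells with LPS, a difference of 0.05 (adjusted p = 0.73). The 4.62-fold fall therefore rests on 1 of the 2 probe sets.

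Of the RNA polymerase I subunits, Polr1b, one of the 2 large subunits that form the active site, was lowered by the fraction. It read 1583, 1586 and 1481 on vehicle arrays and 1005, 921 and 921 on fraction arrays. These do not overlap, and the difference was -0.71 ± 0.10 (adjusted p = 2.8e-05). With LPS the vehicle arrays read 1350, 1263 and 1477 and the fraction arrays 1062, 1100.2 and 1011, a difference of -0.36 ± 0.10 (adjusted p = 0.013). That call was lost without vehicle array 3 with LPS (-0.31, adjusted p = 0.061) or fraction array 3 with LPS (-0.33, adjusted p = 0.054). Polr1e, a peripheral subunit that aids initiation, fell from 738, 742 and 649 to 542, 523 and 588 with the fraction, a difference of -0.36 ± 0.10 (adjusted p = 0.0071); its other probe set gave -0.16 and was not called (adjusted p = 0.41). LPS gave 647, 583 and 578 for Polr1e, all below the vehicle arrays, with a difference of -0.24 that was not called (adjusted p = 0.073). Polr1a, which encodes the other large subunit, differed by -0.22 with the fraction without LPS (adjusted p = 0.083) and by -0.22 with it (adjusted p = 0.1), neither of them called.

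Box H/ACA proteins belong to the snoRNPs of pseudouridylation. Without LPS the fraction lowered 4 of the 5 genes listed with them, the pseudouridine synthase gene Dkc1, its partners Nhp2 and Nop10, and the snoRNP chaperone gene Nolc1. Nop10 fell the most of all nucleolar members: vehicle arrays read 10369, 10094 and 10423 and fraction arrays 4706, 4817 and 6103. That is a fall by 0.99 ± 0.09 on the log2 scale, or 1.99-fold (adjusted p = 5.6e-08). With LPS the vehicle arrays read 11640, 10355 and 10168 and the fraction arrays 6539, 6635 and 6659, a fall by 0.69 ± 0.09 (adjusted p = 1.0e-05). The other Nop10 probe set fell by 1.08 (adjusted p = 6.2e-07) and 0.74 (adjusted p = 8.7e-05), so both of its probe sets fell without and with LPS. Nolc1 fell by 0.59 ± 0.07 without LPS (adjusted p = 5.0e-06) and by 0.48 ± 0.07 with it (adjusted p = 7.8e-05). Both falls of Nolc1 were also called with its next brightest probe set. Its dimmest probe set gave -0.12 (adjusted p = 0.7) and 0.35 (adjusted p = 0.23). The mean of its probe sets with LPS was -0.17 and not called (adjusted p = 0.23). Dkc1 fell by 0.51 ± 0.11 (adjusted p = 0.0017) and 0.42 ± 0.11 (adjusted p = 0.0088), neither of which was called by its other probe sets, and the latter call was lost without fraction array 2 with LPS (-0.31, adjusted p = 0.059). Nhp2 fell by 0.29 ± 0.07 without LPS (adjusted p = 0.0022), whereas its difference of -0.17 with LPS was not called (adjusted p = 0.067).

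Gar1, the remaining H/ACA protein gene, did not follow: its fraction difference was 0.03 without LPS (adjusted p = 0.8) and 0.01 with it (adjusted p = 0.94). LPS raised Gar1 instead, from 3840, 3875 and 4229 on vehicle arrays to 4363, 4574 and 4851, a difference of 0.21 ± 0.07 (adjusted p = 0.022). That call was lost without vehicle array 1 (0.18, adjusted p = 0.082) or 2 (0.19, adjusted p = 0.072), or vehicle array 2 (0.21, adjusted p = 0.056) or 3 (0.17, adjusted p = 0.11) with LPS. Of the 3 box C/D genes, whose proteins belong to the snoRNPs of methylation, the fraction lowered 1 without LPS and 0 with it. Nop56, a scaffold of that particle, fell by 0.22 ± 0.07 with the fraction without LPS (adjusted p = 0.024), a call lost without vehicle or fraction array 2 or 3 (-0.20 to -0.22, adjusted p = 0.055 to 0.089). Nop58, its paralog, spread over 2509, 1498 and 2108 on vehicle arrays and 2444, 2384 and 2386 on fraction arrays, and was not called (0.27, adjusted p = 0.26). With LPS its vehicle arrays read 2980, 2291 and 1919 and its fraction arrays 2276, 1705 and 2482, which overlap. Fbl, the methyltransferase of the particle, differed by -0.02 without LPS (adjusted p = 0.88) and -0.01 with it (adjusted p = 0.93).

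Among the 9 small subunit factors, Nop14 and its binding partner Noc4l moved in opposite directions with the fraction. Nop14, a scaffold protein of the small subunit processome, read 1544, 1313 and 1374 on vehicle arrays and 2356, 2024 and 1894 on fraction arrays. It rose by 0.57 ± 0.09, or 1.48-fold (adjusted p = 0.00011). With LPS the vehicle arrays read 1656, 1501 and 1412 and the fraction arrays 2545, 2244 and 2484, a rise of 0.67 ± 0.09 (adjusted p = 3.1e-05). The 6 fraction arrays were above every one of the other 12 arrays. Noc4l fell from 2427, 2617 and 2137 to 1662, 1628 and 1606 without LPS, by 0.55 ± 0.08 (adjusted p = 3.1e-05), and by 0.33 ± 0.08 with LPS (adjusted p = 0.0045). All 4 Noc4l probe sets had a negative difference in both comparisons, and those without LPS were all called.

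LPS raised Wdr43, a factor that acts on the nascent precursor and whose E-box window is printed above, from 4844, 4220 and 4416 to 5664, 5699 and 5453 in vehicle cells. The difference was 0.32 ± 0.07 (adjusted p = 0.0017), and LPS gave 0.25 ± 0.07 in fraction cells (adjusted p = 0.0098) and 0.23 ± 0.07 in mixture cells (adjusted p = 0.021). With LPS the fraction lowered it by 0.26 ± 0.07 (adjusted p = 0.011), to 4787, 4472 and 4786, a call lost without fraction array 2 with LPS (-0.23, adjusted p = 0.05). The other Wdr43 probe set gave 0.04 for LPS in vehicle cells (adjusted p = 0.9) and 0.25 for the fraction with LPS (adjusted p = 0.32), neither called. Tsr1, a late factor of the small subunit precursor, fell by 0.38 ± 0.07 with the fraction without LPS (adjusted p = 0.00035), and LPS raised it by 0.35 ± 0.07 in fraction cells (adjusted p = 0.00051). Utp15, which acts with Wdr43, and Rrp9, a protein of the U3 snoRNP, were called in none of the 11 comparisons. Heatr1, Utp20 and the export factor gene Rrp12 were called only for LPS in fraction cells, where they rose by 0.19, 0.26 and 0.46.

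The large subunit factors held 6 of the 16 members lowered by the fraction without LPS. Nop16 was the strongest: it read 4444, 4542 and 4534 on vehicle arrays and 2707, 2531 and 2769 on fraction arrays, a fall by 0.76 ± 0.07, or 1.69-fold (adjusted p = 8.0e-08). With LPS the vehicle arrays read 5559, 4916 and 5116 and the fraction arrays 3554, 3889 and 3609, a fall by 0.50 ± 0.07 (adjusted p = 3.0e-05). Fraction arrays lay below every vehicle array without and with LPS. Its other, dim probe set, with a mean of 93.5 against 4353, gave -0.20 (adjusted p = 0.64) and 0.20 (adjusted p = 0.66). Ftsj3, a methyltransferase of the large subunit precursor, fell by 0.59 ± 0.09 (adjusted p = 8.1e-05) without LPS. With LPS it fell by 0.33 ± 0.09 (adjusted p = 0.014), a call lost without fraction array 3 with LPS (-0.28, adjusted p = 0.076) or vehicle array 1 with LPS (-0.29, adjusted p = 0.051). Nop2, a cytosine methyltransferase of ribosomal RNA with the E-box window printed above, fell by 0.39 ± 0.08 (adjusted p = 0.00096) and 0.29 ± 0.08 (adjusted p = 0.013). The latter was -0.23 and not called without fraction array 3 with LPS (adjusted p = 0.079).

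Bop1 was the only called member of the Pes1, Bop1 and Wdr12 complex, which processes the large subunit precursor. It fell by 0.29 ± 0.09 without LPS (adjusted p = 0.017) and 0.24 ± 0.09 with it (adjusted p = 0.048). The first call was lost without fraction array 3 (-0.19, adjusted p = 0.11), vehicle array 1 (-0.27, adjusted p = 0.052) or vehicle array 2 (-0.26, adjusted p = 0.057), and the other in 14 of the 18 fits without 1 array (-0.19 to -0.25, adjusted p = 0.051 to 0.19). With LPS the direction also turned with the probe set: the other one gave 0.47 (adjusted p = 0.07) and the mean of both 0.11 (adjusted p = 0.54). Rrs1, a factor of the 5S particle, fell by 0.37 ± 0.10 with the fraction without LPS (adjusted p = 0.0096; -0.30 and adjusted p = 0.054 without fraction array 3), and LPS raised it by 0.41 ± 0.10 in fraction cells (adjusted p = 0.0042). Wdr74 went against the others, with a rise of 0.34 ± 0.10 without LPS (adjusted p = 0.017) and 0.32 ± 0.10 with it (adjusted p = 0.028). Its arrays did not overlap in either comparison, from 1961 to 2153 on vehicle arrays and from 2302 to 2770 on fraction arrays without LPS. The call without LPS was lost without fraction array 1 or 2 or vehicle array 2 or 3 (0.29 to 0.32, adjusted p = 0.05 to 0.082). That with LPS was lost without fraction array 1 or 2 with LPS or vehicle array 2 or 3 with LPS (0.28 to 0.33, adjusted p = 0.052 to 0.1).

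Noc2l and Noc3l, partners in export of the large subunit precursor, went opposite ways with LPS. Noc3l read 1088, 775 and 1001 on vehicle arrays and 1282, 1332 and 1254 with LPS, a rise of 0.45 ± 0.11 (adjusted p = 0.0043). It also rose in fraction cells (0.50 ± 0.11, adjusted p = 0.0014) and in mixture cells (0.35 ± 0.11, adjusted p = 0.025). Noc2l was the 1 member that LPS lowered in vehicle cells, from 2556, 2728 and 2522 to 2088, 2092 and 2037, a fall by 0.33 ± 0.10 (adjusted p = 0.014) that was not called without vehicle array 2 (-0.29, adjusted p = 0.056). The fraction also lowered Noc2l without LPS, by 0.43 ± 0.10 (adjusted p = 0.0022). For LPS in vehicle cells the other probe sets gave 0.36 for Noc3l (adjusted p = 0.13) and -0.23 for Noc2l (adjusted p = 0.33), in the same directions but not called. The other Noc3l probe set was called higher with the fraction, at 0.69 without LPS (adjusted p = 0.0047) and 0.51 with it (adjusted p = 0.037), where the brighter one gave -0.14 and -0.09 and no call. Gnl3, which encodes nucleostemin, was called only for the fraction against the mixture without LPS (-0.29, adjusted p = 0.025), and not there either without fraction or mixture array 1 or 2.

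None of the genes of the organizing nucleolar proteins was lowered by the fraction. Ncl (nucleolin), Npm1 (nucleophosmin), the helicase gene Ddx21 and Mybbp1a, a nucleolar regulator of transcription, had fraction differences of -0.03 to 0.20 without LPS and -0.00 to 0.17 with it, and no call. Npm1 read 22321, 23397 and 26811 on vehicle arrays and 24370, 27971 and 30837 on fraction arrays, which overlap. Npm1 and Ncl rank 14 and 41 in brightness among all genes. For the fraction, the 100 brightest genes had a median difference of 0.16 without LPS and 0.13 with it. After quantile normalization these medians were 0.01 and -0.01. LPS raised Ddx21 from 4756, 4712 and 4552 to 5336, 5448 and 5631 in vehicle cells, by 0.23 ± 0.07 (adjusted p = 0.023). Its other probe set gave -0.10 (adjusted p = 0.49), and the call was lost without vehicle array 3 (0.21, adjusted p = 0.071) or vehicle array 2 (0.23, adjusted p = 0.056) or 3 (0.21, adjusted p = 0.078) with LPS. Mybbp1a rose by 0.21 ± 0.07 in vehicle cells (adjusted p = 0.038) and by 0.34 ± 0.07 in fraction cells (adjusted p = 0.0012).

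LPS thus raised few nucleolar members in vehicle cells, each by at most 1.36-fold: Gar1, Wdr43, Noc4l, Nop2, Nop16, Noc3l, Ddx21 and Mybbp1a, between 0.20 and 0.45. In the fit of all probe sets, 5 of the 25 members with several were called here: Ddx21, Noc2l, Noc3l, Nop16 and Wdr43. For all 5 no other probe set was called. With the next brightest probe set of each gene, Nop16 gave -0.16 (limma, adjusted p = 0.72) and the Mybbp1a call was lost. Arrays with and without LPS did not overlap for 21 of the 37 members (56.8%), against 41.5% of all genes. In fraction cells LPS raised 17 members and lowered 1 (Nme1), against 11.5% and 25.8% of all genes, with Nop16 (0.47 ± 0.07, adjusted p = 2.1e-05), Noc4l (0.44 ± 0.08, adjusted p = 0.00023) and Nop56 (0.41 ± 0.07, adjusted p = 0.00014) among them. In mixture cells it raised Myc, Noc3l, Wdr43 and Nop16 and lowered Nolc1 (-0.28 ± 0.07, adjusted p = 0.0074), against 8.32% and 16.3% of all genes. Centring each array on its median moved the median of all genes by 0.12 for LPS in vehicle cells and by 0.16 in fraction cells. The members raised and lowered were then 15 and 0 in vehicle cells, 26 and 1 in fraction cells and 10 and 0 in mixture cells, and all genes went from 1161 raised and 2519 lowered to 1727 and 1574 in vehicle cells; after quantile normalization they were 6 and 2, 16 and 1, and 2 and 1. No member call changed sign under either scaling. Calls that stood whichever 1 array was left out were Myc, Noc3l and Wdr43 in vehicle cells, 13 of 18 in fraction cells (all but Ddx21, Ftsj3, Gar1, Heatr1 and Wdr43) and Myc in mixture cells. In vehicle cells the calls of Noc4l, Nop2, Nop16 and Mybbp1a were each lost without vehicle array 1 or 3, among others, with differences of 0.14 to 0.23. The count of 9 raised in vehicle cells was 4 without vehicle array 1 or without vehicle array 2 or 3 with LPS, and 5 without vehicle array 3; that of 4 in mixture cells was 1 without mixture array 2, 1 without mixture array 2 with LPS and 2 without mixture array 1 with LPS. The 1 lowered was 0 without vehicle array 2 and 2 without vehicle array 3 or vehicle array 1 with LPS in vehicle cells, and 0 without mixture array 3 with LPS in mixture cells.

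**Figure D4:**
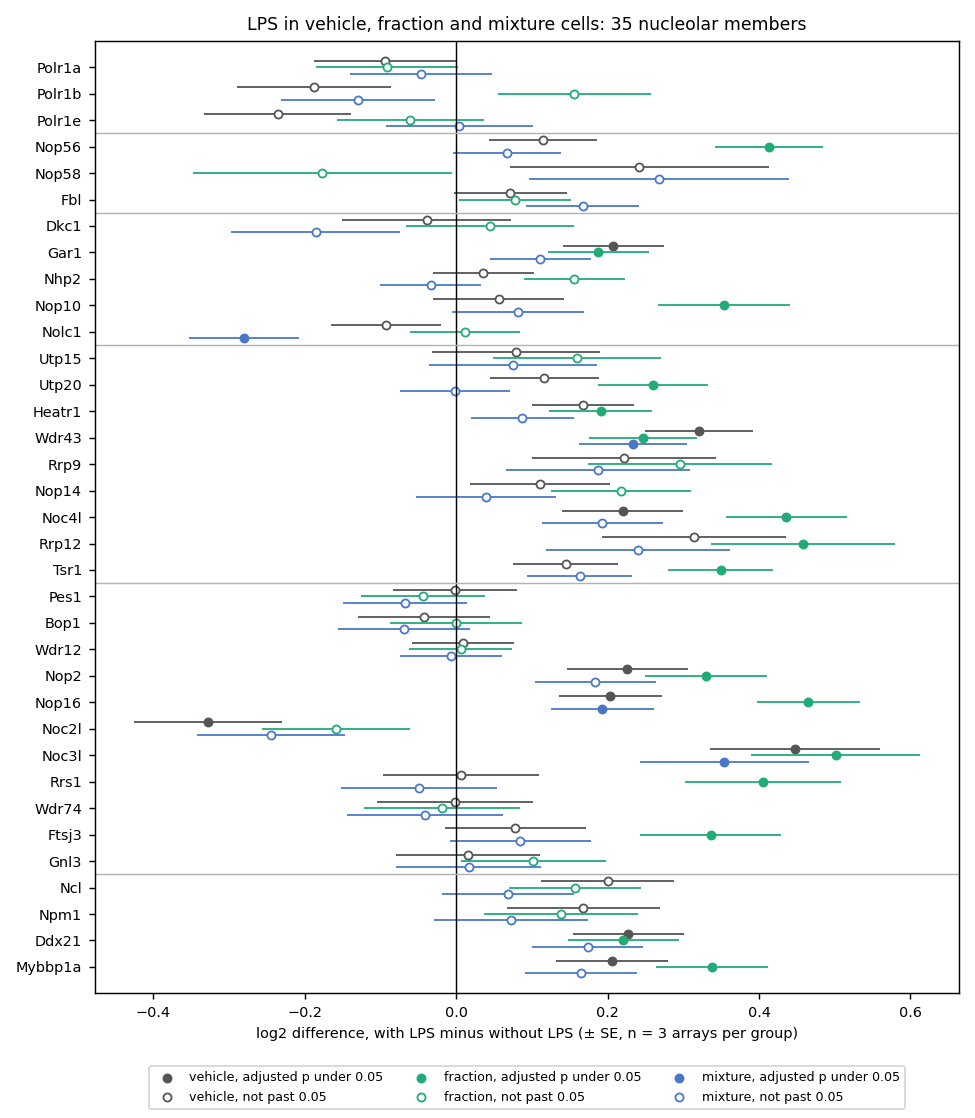
Log2 difference between arrays with and without LPS (± SE, 3 arrays a group) for the 35 nucleolar members other than Myc and Nme1, in vehicle (grey), fraction (green) and mixture (blue) cells; filled points are called at adjusted p under 0.05. Filled green points lie to the right of 0 for 16 members, filled grey points for 8, and Noc2l and Nolc1 are the members with a filled point on the left.

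The test of the difference between the LPS responses of fraction and vehicle cells called 1 member, Nme1 by its brighter probe set (-1.46 ± 0.34, adjusted p = 0.03; lost without any vehicle array, fraction array 2, vehicle array 2 or 3 with LPS, or any fraction array with LPS), against 0.892% of all genes with a positive and 1.25% with a negative call. It was 0.16 by the other probe set (adjusted p = 0.67). Unadjusted p was under 0.05 for 6 of the 37 members and for 1566 of all 11547 genes, the other 5 members being Polr1b (0.34), Nop56 (0.30), Nop10 (0.30), Nop16 (0.26) and Rrs1 (0.40), with adjusted p of 0.16 to 0.28. The larger number of members raised by LPS in fraction cells is therefore not shown to differ gene by gene from that in vehicle cells. Each of these 5 began lower in fraction cells without LPS, and the same arrays enter both counts.

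For the fraction against vehicle, arrays of the groups did not overlap for 22 of the 37 members without LPS (59.5%, against 42.9% of all genes) and for 22 with LPS (59.5%, against 36.1%). All of the 11 members lowered with LPS were also lowered without it except Wdr43, which was -0.19 there (adjusted p = 0.054). Polr1e, Nop56, Nhp2, Tsr1, Noc2l and Rrs1 were called without LPS and not with it, where their differences were -0.26 to 0.08, and the test of the difference between these conditions called none of the 6. Calls that stood whichever 1 array was left out were 13 of 19 without LPS and 6 of 13 with it. The count lowered with LPS was 7 without fraction array 3 with LPS. After median centring the counts raised and lowered were 2 and 22 without LPS and 1 and 13 with it, while all genes went from 1837 raised and 1771 lowered to 1344 and 2274 without LPS, and from 1281 and 1465 to 1017 and 1685 with it. Of the 25 members with more than 1 probe set above the filter, 13 were called without LPS, and for 6 of these (Bop1, Dkc1, Nop16, Polr1e, Rrs1 and Tsr1) no other probe set was called.

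**Figure D5:**
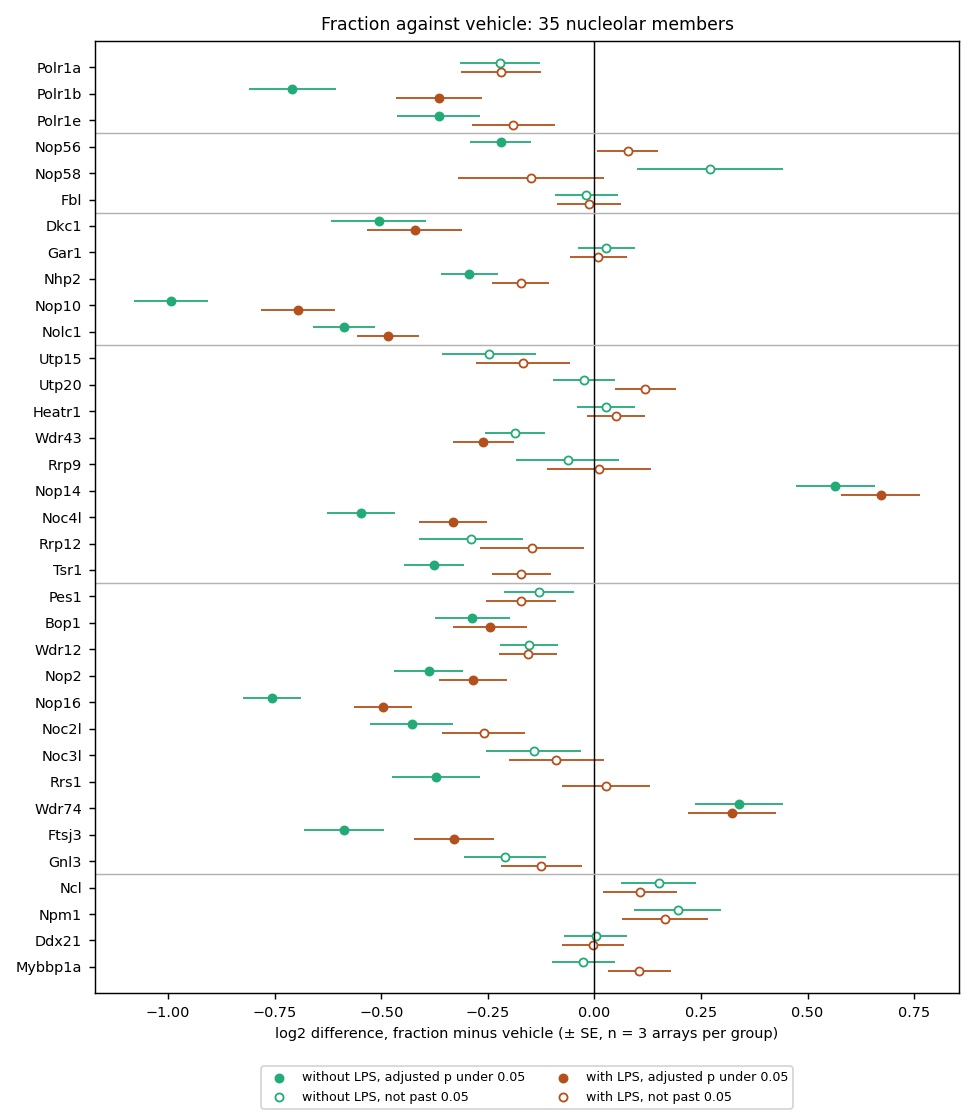
Log2 difference between fraction and vehicle arrays (± SE, 3 arrays a group) for the 35 nucleolar members other than Myc and Nme1, without LPS (green) and with LPS (brown); filled points are called at adjusted p under 0.05, and lines separate the roles. The filled points lie to the left of 0 for 15 members without LPS and 10 with it, and to the right for Nop14 and Wdr74 only.

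Against the mixture without LPS, the fraction lowered 4 of 5 box H/ACA genes, 7 of 11 large subunit factors, 3 of 9 small subunit factors, 1 of 3 polymerase subunits and 1 of 3 box C/D genes, and raised Nop14 and Wdr74. These comparisons use the same fraction arrays as those against vehicle. Without LPS it raised 3 members and lowered 17, against 17% and 15.4% of all genes, with Nop10 (-1.12 ± 0.09, adjusted p = 1.2e-08), Nop16 (-0.82 ± 0.07, adjusted p = 3.0e-08) and Polr1b (-0.64 ± 0.10, adjusted p = 7.6e-05) lower and Nop14 (0.48 ± 0.09, adjusted p = 0.0005) higher. With LPS it raised 3 and lowered 13, against 12% and 16.2%, with Nop10 at -0.85 ± 0.09 (adjusted p = 6.7e-07), Nop16 at -0.54 ± 0.07 (adjusted p = 7.8e-06) and Nop14 at 0.66 ± 0.09 (adjusted p = 2.8e-05). Nolc1 and Wdr43, both among the 13, each had another probe set called higher there, at 0.70 (adjusted p = 0.012) and 0.63 (adjusted p = 0.0076). The count of 13 was 6 without mixture array 1 with LPS, and 7 without fraction array 2 or 3 with LPS. Whichever 1 array was left out, 15 of the 20 calls without LPS and 7 of the 16 with it stood. With median centring the counts without LPS were 2 and 25, the median of all genes moved by -0.10, and all genes went from 1962 raised and 1781 lowered to 1399 and 2439.

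The mixture against vehicle gave no call by limma for any member or any gene (0%) without LPS, where unadjusted p was under 0.05 for 4 members and 565 genes, nor with LPS (0%), where it was for 3 members and 934 genes. Arrays did not overlap for 7 members in each (18.9%), against 8.31% of all genes without LPS and 12.6% with it. The largest differences among the nucleolar members without LPS were in Npm1 (0.33, 95% interval 0.11 to 0.55) and Ncl (0.30, 0.11 to 0.49), both with adjusted p of 0.81. Npm1 and Ncl rank 14 and 41 in brightness among all genes, and the 100 brightest genes had a median difference of 0.23 in the same comparison, which became -0.00 after quantile normalization. For Nop10 the mixture arrays without LPS read 11004, 11830 and 10957, all above the vehicle arrays (10369, 10094 and 10423). For Polr1b they read 1424, 1346 and 1690, which overlap the vehicle arrays. For both genes they lay above all 3 fraction arrays without LPS. The difference between the LPS responses of mixture and vehicle cells had no call in either direction (0% and 0%), with no member and 412 genes at an unadjusted p under 0.05. Over the 35 nucleolar members the differences were -0.12 to 0.33 without LPS and -0.17 to 0.23 with it, with 95% intervals that reached from -0.39 to 0.55 and from -0.43 to 0.52.

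The rest of the machinery was read from further gene lists. Of 12 other genes of the RNA polymerase I machinery, the fraction without LPS raised 4 and lowered 3, against 15.9% and 15.3% of all genes. Cd3eap, which encodes a subunit of the polymerase, fell by 0.96 ± 0.10 (adjusted p = 6.5e-07), and the promoter factor gene Taf1d fell by 0.62 ± 0.14 (adjusted p = 0.0019), whereas Taf1b of the same promoter complex rose by 0.74 ± 0.11 (adjusted p = 4.3e-05) and the subunit gene Polr1c by 0.51 ± 0.09 (adjusted p = 0.00019). LPS in vehicle cells raised 2 and lowered 3 of these, against 10.1% and 21.8% of all genes. The fraction with LPS raised 1 and lowered 3, against 11.1% and 12.7%, among them Ubtf, the architectural factor of the ribosomal gene promoter (-0.55 ± 0.12, adjusted p = 0.0026). Of 48 other small subunit factors the fraction raised 7 and lowered 13 without LPS (all genes 15.9% and 15.3%) and raised 8 and lowered 6 with it (all genes 11.1% and 12.7%). Esf1 (0.90, adjusted p = 0.00093) was highest and Utp23 (-0.70, adjusted p = 2.3e-05) lowest without LPS. Of 49 other large subunit factors it raised 5 and lowered 13 without LPS, with Nol9 lowest (-0.81, adjusted p = 1.8e-05), and raised 7 and lowered 8 with it, against the same shares of all genes. The medians without LPS, -0.09 and -0.08, were nearer to the 0.02 of all genes than the -0.22 of the 37 members. Members and further lists were chosen with earlier results of these data known, so this contrast is descriptive only.

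LPS in vehicle cells raised 4 and lowered 5 of those small subunit factors, and raised 9 and lowered 4 of the large subunit factors, with Sdad1 highest (0.68, adjusted p = 1.8e-05), against 10.1% of all genes raised and 21.8% lowered. Of 10 measured snoRNP assembly factors the fraction raised 2 and lowered 2 without LPS (all genes 15.9% and 15.3%), and Znhit3, which acts in box C/D assembly, fell by 1.10. The RNA exosome trims ribosomal RNA precursors, and of 13 measured genes LPS in vehicle cells raised 1 and lowered 4 (all genes 10.1% and 21.8%). The fraction without LPS raised 1 and lowered 3 (all genes 15.9% and 15.3%), with Exosc2 at -0.62 (adjusted p = 0.00054).

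Of 13 measured genes of Myc's partners and rivals, LPS in vehicle cells raised 2 and lowered 2, against 10.1% and 21.8% of all genes. LPS in vehicle cells raised Mxd1, which encodes a rival of Myc for Max, by 2.02 ± 0.46 (adjusted p = 0.002) and Max itself by 0.51 ± 0.17 (adjusted p = 0.024). It lowered the rival genes Mnt by 1.10 ± 0.21 (adjusted p = 0.00049) and Mxi1 by 0.98 ± 0.12 (adjusted p = 3.5e-06). With LPS the fraction lowered 5 of the 13 and raised 1, against 12.7% and 11.1% of all genes. Mxd1 differed by -2.01 ± 0.46 (adjusted p = 0.003), with a mean of 67.5 against 275 in vehicle cells with LPS, and Mnt differed by -1.08 ± 0.21 (adjusted p = 0.00091). The 67.5, and the 63.4 of vehicle cells, lie near the array medians of 52.1 to 66.8, so both Mxd1 differences are set against a low signal and their size is uncertain. Of 37 other measured Myc targets, LPS raised 6 and lowered 7 in vehicle cells, against 10.1% and 21.8% of all genes. The fraction raised 8 and lowered 11 without LPS, against 15.9% and 15.3%, with Eif4ebp1, a brake on translation initiation, at 1.32 ± 0.10 (adjusted p = 9.4e-09) and the amino acid transporter gene Slc3a2 at 1.23 ± 0.07 (adjusted p = 1.9e-10), while Umps of pyrimidine synthesis fell by 0.90 ± 0.13 (adjusted p = 4.2e-05) and Ppat of purine synthesis by 0.72 ± 0.10 (adjusted p = 3.0e-05). With LPS it raised 6 and lowered 9 of them, against 11.1% and 12.7%.

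Of 79 listed genes of structural proteins of the cytosolic ribosome, 43 were tested. LPS in vehicle cells raised 1 of the 43, against 10.1% of all genes raised and 21.8% lowered. The fraction raised 4 without LPS (all genes 15.9% raised and 15.3% lowered) and 2 with it (all genes 11.1% and 12.7%). None of the 43 was lowered in these comparisons. Their median difference was 0.14, 0.18 and 0.15. Of the 43, 35 are among the 100 brightest genes, whose medians were 0.15, 0.16 and 0.13, and after quantile normalization the medians of the 43 were -0.03, 0.02 and 0.00 and the counts raised 0, 1 and 0. Of the nucleolar stress and p53 genes, 4 of 7 were tested: LPS in vehicle cells raised Mdm2 (0.58 ± 0.13, adjusted p = 0.002) and Cdkn1a (0.54 ± 0.11, adjusted p = 0.00063), and the fraction without LPS raised Mdm2 (0.49 ± 0.13, adjusted p = 0.007) and Mdm4 (0.46 ± 0.11, adjusted p = 0.0028). None of the 4 was called for the fraction with LPS, where none had an unadjusted p under 0.05. The shares of all genes in these comparisons are those given above for the ribosomal proteins.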

How the data were processed

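The measured quantity is mRNA abundance in 18 samples of RAW264.7 cells, each on 1 array, in 6 groups of 3. The authors deposited 1 linear intensity per probe set and array, made with MAS5 per the submitters' processing notes (version not given in the sources used here); intensities had a trimmed mean of 500 on every array and medians of 52.1 to 66.8. Of 45101 probe sets 34945 name 1 gene. Intensities under 1 (0.824% of values) were set to 1 before log2 was taken. Probe sets that reached the median of their array on 3 or more of 18 arrays were kept, and the brightest of these stood for its gene, giving 11547 genes, 5575 of them with several kept probe sets. Means of the 6 groups were fitted with limma 3.58.1 in R 4.3.3 with an intensity trend and 12 residual degrees of freedom, and p-values were adjusted by the Benjamini-Hochberg method over all genes (two-sided, threshold 0.05). The procedure was tested on simulated data with noise independent between arrays. The planted differences were larger than many of those called here, so the simulation does not cover these smaller calls. The number of arrays limits the precision. Members and further lists were chosen with earlier results of these data known. Values on every array are printed for Myc, Nme1 and, in each role, the members with the largest change in the comparisons of LPS in vehicle cells and of the fraction with vehicle; up to 4 genes of each further list are named, the 2 highest and 2 lowest called. Further members were given array values after their results were seen. Alternatives were the normalization, scaling, pseudocount of 32, filter, trend, probe set rule, arrays in the fit, the replicate number as a block, calls held to a 1.5-fold minimum, and leaving out single arrays. Another 3 were chosen after seeing the data: low signals set to the array median, the next brightest probe set, and the 6 arrays numbered 1 left out. Deviations of same-numbered arrays from their group means correlated at 0.018 to 0.17, and 9 of 45 pairs exceeded 0.1. Those of arrays from different groups with different numbers correlated at -0.13 to 0.052. Same-numbered arrays were thus weakly alike, and the main fit did not pair them.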

Additional observations from a re-analysis of the deposited data

Results flagged for a closer look

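For Nme1 the difference between the LPS responses of fraction and vehicle cells was itself past the threshold in its test: -1.46 ± 0.34 on the log2 scale (limma, adjusted p = 0.03). With LPS all 3 fraction arrays of the brighter probe set lay between 2849 and 3095, while without LPS they lay between 4245 and 14171. The other Nme1 probe set gave 0.16 for the same difference (adjusted p = 0.66 in a fit with the next brightest probe set of each gene). Which of the probe sets follows Nme1 transcripts was not tested.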

How the results depend on the processing

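Of 102 member calls over all comparisons, 39 stood under all of up to 31 alternatives, 50 were lost under at least 1 without a change of sign, and 13 changed sign under at least 1, each of these under another choice of probe sets. Myc kept its call for LPS under all alternatives that tested it, as did Nop10 and Nop14 for the fraction against vehicle with and without LPS. Counts below are members raised or lowered, and only those that differ from the main count by more than 1.5 times are listed; the cause was not tested. Main counts were 9 raised and 1 lowered for LPS in vehicle cells, 17 and 1 in fraction cells, 4 and 1 in mixture cells; 3 and 16 for the fraction against vehicle without LPS and 2 and 11 with it; 3 and 17 for the fraction against the mixture without LPS and 3 and 13 with it; and 0 and 1 for the difference of LPS responses between fraction and vehicle. Quantile normalization gave 2 lowered for LPS in vehicle and 2 raised in mixture cells. Median centring gave 15 raised and 0 lowered in vehicle, 26 raised in fraction, and 10 raised and 0 lowered in mixture cells, and 1 raised for the fraction with LPS. No intensity trend gave 2 lowered in vehicle cells and 0 for the difference of responses. The mean of probe sets gave 5 raised and 2 lowered in vehicle and 2 raised in mixture cells, and for the fraction with LPS 7 lowered against vehicle and 8 against the mixture, with 0 for the difference of responses. Leaving out probe sets with the suffix a, s or x, treated as open to cross-hybridization, gave 5 raised in vehicle cells. It gave 0 lowered in fraction cells and 0 for the difference of responses. Myc, Nme1, Gar1, Tsr1 and Gnl3 had no other probe set and were not tested in that fit. Both counts of 0 reflect the absence of Nme1, and the 5 raised lack Myc and Gar1 for the same reason. Fitting only the arrays compared gave 3 raised in vehicle cells and 0 for the difference of responses. The replicate block gave 2 lowered in vehicle and 2 in mixture cells; its other counts were within 1.5 times. A 1.5-fold minimum left 1 and 0 for LPS in vehicle, 1 raised in fraction and 1 and 0 in mixture cells, 1 and 6 for the fraction against vehicle without LPS, 1 and 2 with it, 1 and 6 against the mixture without LPS and 2 lowered with it. The next brightest probe set gave 0 lowered in vehicle, 0 lowered in fraction, and 2 raised and 0 lowered in mixture cells, 7 lowered for the fraction with LPS, 5 and 6 raised against the mixture, and 0 for the difference of responses, where Nme1 turned to 0.16. Without the 6 arrays numbered 1 the counts were 5 raised in vehicle, 2 raised in mixture cells, 1 raised for the fraction with LPS and 6 lowered against the mixture with LPS. Leaving out 1 array at a time gave 4 to 10 raised and 0 to 2 lowered in vehicle cells, 1 to 4 and 0 to 1 in mixture cells, 1 to 3 and 7 to 12 for the fraction with LPS, 6 to 14 lowered against the mixture with LPS, and 0 to 1 in each direction for the difference of responses.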
